A study of Rattus norvegicus with 12 samples.

Results

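The circadian clock genes examined here were the 10 genes Clock, Npas2, Per1, Per2, Per3, Cry1, Cry2, Nr1d1, Nr1d2 and Dbp, chosen by symbol from the 17268 genes of the count table. All 10 were found and all 10 passed the filter on low counts in every comparison. Total RNA of cerebral cortex from adult male Sprague Dawley rats was sequenced in 12 libraries, 3 in each of 4 groups. Sham rats had no clot. Model rats had a clot injected to occlude the middle cerebral artery (MCAO), which is an embolic stroke model. The rt-PA rats had the same stroke and recombinant tissue-type plasminogen activator, a clot-dissolving enzyme, at 6 h. The rt-PA+Acu rats had the stroke, Xingnaokaiqiao acupuncture at the Shuigou and Neiguan points at 2 h, and the thrombolytic. No group with acupuncture alone, or with either treatment and no stroke, was among these libraries. The hour of day at which the tissue was taken was not given in the sources used here. Levels of these genes change with the hour, so for each difference between groups below, a difference in collection time and an effect of stroke or treatment cannot be told apart.

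In mammalian cells the clock is a feedback loop of transcription. CLOCK, or its close relative NPAS2, pairs with BMAL1 and activates E-box genes, among them the Per, Cry and Rev-erb genes (Nr1d1, Nr1d2) and Dbp. PER and CRY proteins then return to the nucleus and repress that pair, REV-ERB proteins repress genes that carry ROR elements, and DBP activates genes that carry D-boxes. In the cortex, the loop runs in neurons and glia and is kept in time by the master clock of the hypothalamus, by glucocorticoids and by activity. The gene encoding BMAL1 was not in the count table under the symbols Bmal1 or Arntl, so it was not analysed here.

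Library totals ran from 11678450 to 13616935 counts, and the lowest count of any of the 10 genes in any library was 75 (Dbp). Levels are given as CPM, counts scaled to a common library size after trimmed-mean (TMM) correction, and are compared between libraries and not between genes. All 6 neuronal and 7 cortical layer markers were detected, as the tissue label requires. The neuronal markers, of which Snap25 made up the most, summed to 4787 to 5583 CPM in Sham and 4653 to 5083 in Model, with rt-PA at 3778 to 4692 and the rt-PA+Acu libraries at 4147 to 6242. Their members did not move together. Slc17a7, a marker of excitatory neurons, stood at 1308 to 1463 CPM in Sham and 724 to 838 in Model, Rbfox3 at 233 to 332 and 93.5 to 175, and Gad1, a marker of inhibitory neurons, at 247 to 288 and 393 to 544. In rt-PA and rt-PA+Acu, Slc17a7 stood at 525 to 702 and 950 to 1878 CPM. Rbfox3 stood at 106 to 143 and 177 to 273 CPM there, and Gad1 at 473 to 545 and 308 to 553. Markers of striatal neurons, cells from below the cortex, summed to 185.8 to 703.9 CPM in Sham and to 65.2 to 209.4 across the other 9 libraries. The high sums were those of Sham replicates 2 and 3. In Sham replicates 1, 2 and 3, Drd2 stood at 3.95, 48.8 and 34.3 CPM and Adora2a at 7.01, 75.1 and 58.0. The part of this tissue difference in comparisons with Sham was not tested. Model replicate 3 stood apart from its group. It was the Model library nearest to the Sham mean for 9 of the 10 clock genes, all but Cry1. Its Spp1 level was 47.3 CPM, against 308 and 328 in the other Model libraries, while the macrophage markers Cd68 (4.13 CPM) and Lgals3 (61.4 CPM) were highest in it. Rpl39, a ribosomal protein gene, stood at 11.7 CPM in Model replicate 3, beside 9.17 to 11.5 in Sham. The other Model libraries had 60.5 and 63.2 CPM of Rpl39, with rt-PA at 59.5 to 71.1 and rt-PA+Acu at 42.6 to 53.6. The cause of this split was not tested.

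Compared with Sham, Model cortex had less RNA of the Per genes, of Cry2, of both Rev-erb genes, of Npas2 and of Dbp, and more of Clock. In the quasi-likelihood test of edgeR, adjusted by the Benjamini-Hochberg method, 8 of the 10 genes fell and 1 rose at an adjusted p under 0.05. Among all 12884 genes tested, 54.0% passed this test, with 26.6% lower and 27.3% higher. With a change of more than 2-fold also required, which defines a differentially expressed gene (DEG) here, 6 of the 10 were DEGs, all lower, against 21.5% of all genes in either direction. The groups did not overlap for 9 of the 10 genes, against 63.6% of all genes. The median log2 fold change of the 10 was -1.07, and that of all genes was 0.01. In bulk tissue, fewer cells of a type and less RNA per cell cannot be told apart.

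**Figure D1:**
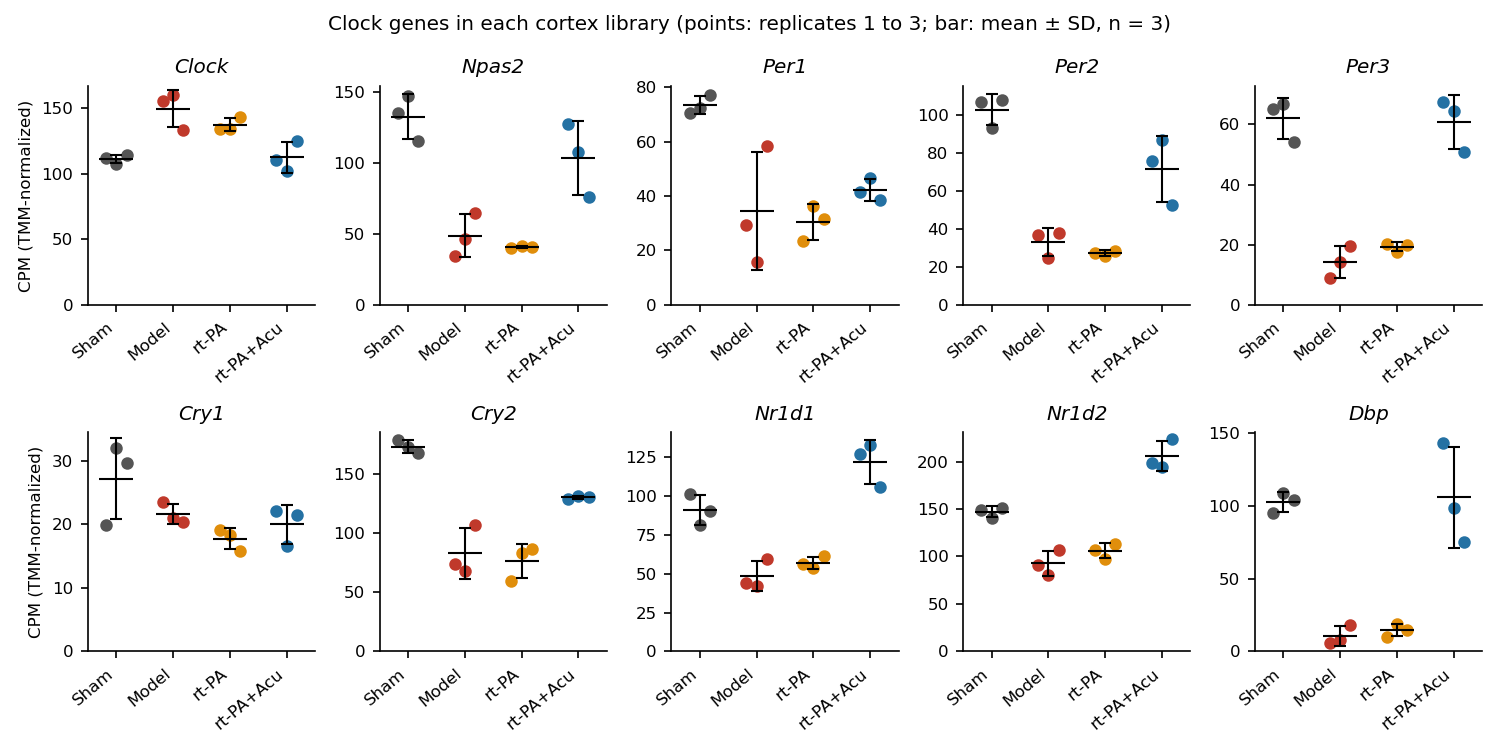
TMM-scaled CPM (vertical axes, each starting at 0) of the 10 clock genes in each of the 12 libraries, by group, with horizontal bars at the group means and error bars of 1 SD (n = 3). Dbp stood between 5.73 and 18.8 CPM in the 6 Model and rt-PA libraries and between 75.2 and 143.5 in the 6 Sham and rt-PA+Acu libraries.

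Dbp encodes a PAR bZIP transcription factor and is an output gene with one of the widest daily swings in many tissues. It was measured at 94.9, 109 and 104 CPM in Sham replicates 1, 2 and 3. In Model it stood at 5.73, 7.70 and 18.1 CPM, and in rt-PA at 10.1, 18.8 and 14.9 CPM. The values in both groups lay far below every Sham value. In rt-PA+Acu, Dbp stood at 144, 98.7 and 75.2 CPM, a range that spanned the whole Sham range and did not reach down to any Model or rt-PA value. Dbp fell by 3.29 on the log2 scale in Model against Sham (SE 0.36, edgeR adjusted p = 0.000173), which is 9.75-fold lower, and had the widest change of the 10 genes in that comparison. Without Model replicate 3 the log2 fold change was -3.93.

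Per1, Per2 and Per3 encode the period proteins of the repressor complex. Per3 stood at 65.2, 66.8 and 54.3 CPM in Sham and at 8.93, 14.4 and 19.6 in Model, with rt-PA at 20.4, 17.7 and 20.0 and the rt-PA+Acu libraries at 67.5, 64.3 and 50.7. For Per3 the Sham and rt-PA+Acu ranges overlapped, and both lay above every Model and rt-PA value. Per2 stood at 107, 93.2 and 108 CPM in Sham and at 36.9, 24.6 and 37.9 in Model, with rt-PA at 27.4, 25.4 and 28.5 and the rt-PA+Acu libraries at 75.4, 86.5 and 52.5. For Per2 the rt-PA+Acu libraries lay in a band of their own, above all Model and rt-PA libraries and below all Sham libraries. Per3 fell by 2.12 on the log2 scale in Model against Sham (SE 0.25, edgeR adjusted p = 0.000236). Per2 fell by 1.62 (SE 0.17, edgeR adjusted p = 0.000132).

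Per1 is also an early response gene, switched on by cyclic AMP signalling and by glucocorticoids. It stood at 70.6, 72.5 and 77.2 CPM in Sham and at 29.2, 15.7 and 58.3 in Model, where replicate 3 was the high value. It stood at 23.4, 36.3 and 31.7 CPM in rt-PA and at 41.4, 46.4 and 38.7 in rt-PA+Acu. All 3 Sham values were above all 9 others. Per1 fell in Model by 1.09 on the log2 scale (SE 0.38, edgeR adjusted p = 0.0387), and this was the least stable call of the comparison. It held in 6 of 13 alternatives and was lost with DESeq2 (adjusted p = 0.0665), with library size alone as the scaling and when any 1 library other than Model replicate 3 was left out (highest adjusted p 0.0957). Without Model replicate 3 the log2 fold change was -1.69 (edgeR adjusted p = 0.000463).

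Cry1 and Cry2 encode the cryptochromes, partners of the period proteins in repression. Cry2 stood at 179, 173 and 168 CPM in Sham and at 73.8, 67.6 and 107 in Model, with rt-PA at 59.8, 83.2 and 86.2 and the rt-PA+Acu libraries at 129, 131 and 131. The rt-PA+Acu values of Cry2 were close together and lay between the stroke groups and Sham with no overlap. Cry2 fell by 1.06 on the log2 scale in Model against Sham (SE 0.16, edgeR adjusted p = 0.00091). This change was just past 2-fold and came to -0.98 without Model replicate 1 and -0.93 without Model replicate 2. Cry1 stood at 19.9, 32.0 and 29.6 CPM in Sham and at 23.4, 21.0 and 20.4 in Model, with rt-PA at 19.0, 18.3 and 15.9 and the rt-PA+Acu libraries at 22.0, 16.5 and 21.5. Sham replicate 1 was low for Cry1, so that Sham overlapped with Model and with rt-PA+Acu. Cry1 did not pass the test in Model (log2 fold change -0.32, SE 0.18, edgeR adjusted p = 0.171), and without Sham replicate 1 it did (-0.51, adjusted p = 0.0205).

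Nr1d1 and Nr1d2 encode REV-ERB alpha and REV-ERB beta, nuclear receptors that repress the Bmal1 gene. Nr1d1 stood at 101, 81.5 and 90.1 CPM in Sham and at 44.0, 42.1 and 59.3 in Model, with rt-PA at 56.5, 53.4 and 61.1 and the rt-PA+Acu libraries at 127, 133 and 106. Nr1d2 stood at 149, 141 and 152 CPM in Sham and at 90.6, 80.8 and 107 in Model, with rt-PA at 107, 97.6 and 113 and the rt-PA+Acu libraries at 199, 194 and 223. Both genes had the same order of groups, in which all rt-PA+Acu values were the highest, Sham came next with no overlap, and Model and rt-PA were lowest and overlapped. In Model against Sham, Nr1d1 fell by 0.90 on the log2 scale (SE 0.15, edgeR adjusted p = 0.00127) and Nr1d2 by 0.66 (SE 0.11, edgeR adjusted p = 0.00153). Nr1d1 was past 2-fold only without Model replicate 3, at -1.07.

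Clock and Npas2 encode the interchangeable partners of BMAL1, and they moved in opposite directions. Clock stood at 112, 107 and 114 CPM in Sham and at 155, 160 and 133 in Model, with rt-PA at 134, 134 and 143 and the rt-PA+Acu libraries at 110, 102 and 125. Npas2 stood at 136, 147 and 116 CPM in Sham and at 34.5, 46.7 and 64.8 in Model, with rt-PA at 39.9, 41.3 and 40.5 and the rt-PA+Acu libraries at 128, 108 and 76.1. Of the 10 genes, Clock alone had all its Model values above all its Sham values. It rose in Model by 0.43 on the log2 scale (SE 0.10, edgeR adjusted p = 0.00536), while Npas2 fell by 1.44 (SE 0.21, edgeR adjusted p = 0.000664). Both calls held in all 13 alternatives.

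The rt-PA group without acupuncture was set against the same 3 Sham libraries that served for Model. By edgeR's quasi-likelihood test, Clock rose and the other 9 fell at an adjusted p under 0.05, against 54.7% of all genes in either direction. Of the 10, 6 were DEGs, against 22.6% of all genes in either direction and 11.6% in the lower direction. They were Npas2, Per1, Per2, Per3, Cry2 and Dbp, all lower. All 10 genes had groups that did not overlap, against 64.1% of all genes, and the median log2 fold change was -1.24. Dbp fell by 2.83 on the log2 scale (SE 0.20, edgeR adjusted p = 3.47e-05) and Per2 by 1.94 (SE 0.10, edgeR adjusted p = 1.1e-05). The 2 weakest calls were Clock, at 0.28 (SE 0.07, edgeR adjusted p = 0.013, and 0.0614 without Sham replicate 2), and Cry1, at -0.63 (SE 0.19, edgeR adjusted p = 0.0214). By edgeR, Cry1 was no longer called without Sham replicate 2 (edgeR adjusted p = 0.0803), without Sham replicate 3 (0.0722) or without rt-PA replicate 3 (0.073), nor with library size alone as the scaling (0.0566).

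Between rt-PA and Model, where the question is what delayed thrombolysis added to the stroke, 0 of the 10 clock genes passed edgeR's quasi-likelihood test, and the same was true of all 12941 genes (0%). At an unadjusted p under 0.05 the count was again 0 of 10, against 9.92% of all genes, and DESeq2 called 0 of the 10 as DEGs, with 73 of the 12941 genes called. The log2 fold changes ran from -0.29 for Per2 to 0.48 for Dbp, with edgeR adjusted p from 0.546 to 0.929. The 95% confidence intervals of the 10 genes together reached from -1.15 (Per1) to 1.48 (Dbp), so changes of 2-fold were not excluded for Per1, Per3 and Dbp. The groups did not overlap for 1 gene, Cry1, which was lower in all rt-PA libraries, against 15.9% of all genes.

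**Figure D2:**
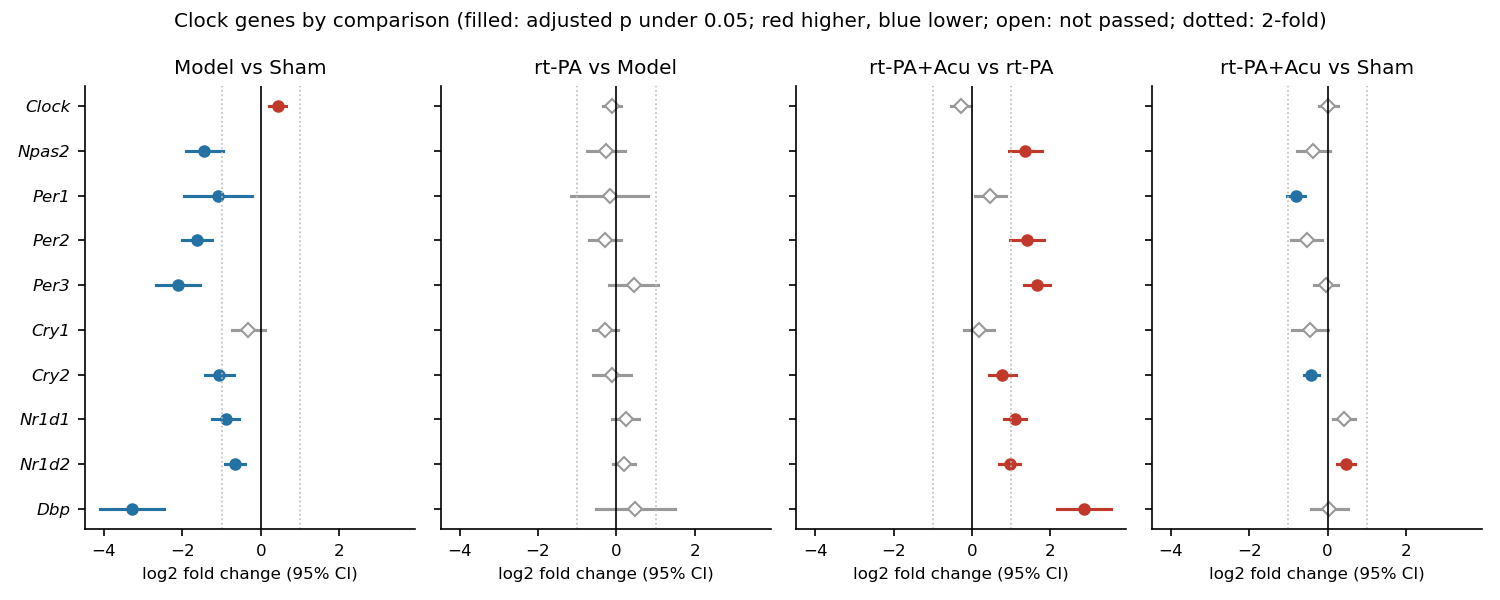
Log2 fold changes (horizontal axis) of the 10 clock genes in 4 comparisons (1 panel each), with 95% confidence intervals as bars. Filled points passed an edgeR adjusted p under 0.05 (red higher, blue lower), open points did not, and dotted lines mark 2-fold. For Dbp the point lies at -3.29 in Model against Sham, at 2.86 in rt-PA+Acu against rt-PA and at 0.04 in rt-PA+Acu against Sham.

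With acupuncture given before the thrombolytic, most of the genes that were low in rt-PA stood higher. Against rt-PA, 7 of the 10 genes rose and 0 fell at an edgeR adjusted p under 0.05, while 34.8% of all 12999 genes passed and 17.0% of all genes passed with a higher level. Per1, Clock and Cry1 did not pass. The groups did not overlap for 9 of the 10 genes, against 51.1% of all genes. Of the 7, 5 were DEGs, against 15.3% of all genes in either direction and 7.17% in the higher direction. They were Npas2, Per2, Per3, Nr1d1 and Dbp. The median log2 fold change of the 10 was 1.03, and that of all genes was 0.00.

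Dbp rose by 2.86 on the log2 scale in rt-PA+Acu against rt-PA (SE 0.30, edgeR adjusted p = 0.00134), which is 7.25-fold. Per3 rose by 1.65 (SE 0.14, edgeR adjusted p = 0.00104), Per2 by 1.40 (SE 0.18, edgeR adjusted p = 0.00254) and Npas2 by 1.36 (SE 0.18, edgeR adjusted p = 0.00264). Nr1d1 rose by 1.10 (SE 0.12, edgeR adjusted p = 0.00145), Nr1d2 by 0.96 (SE 0.11, edgeR adjusted p = 0.00178) and Cry2 by 0.77 (SE 0.15, edgeR adjusted p = 0.00815). These 7 calls at an adjusted p under 0.05 held in all 13 alternatives. Per1 was higher in all 3 rt-PA+Acu libraries than in any rt-PA library but missed the threshold, with a log2 fold change of 0.47 (SE 0.18, edgeR adjusted p = 0.072, and 0.0421 without rt-PA replicate 2). Clock had a log2 fold change of -0.29 (SE 0.11, edgeR adjusted p = 0.0852, and 0.0277 without rt-PA+Acu replicate 3). Cry1 had 0.18 (SE 0.17, edgeR adjusted p = 0.44).

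Within rt-PA+Acu, replicate 3 was the lowest library for Npas2, Per1, Per2, Per3, Nr1d1 and Dbp and the highest for Clock and Nr1d2. The same library had the lowest neuronal marker sum of its group (4147 CPM, although Gad1 was highest in it), the lowest oligodendrocyte sum (2861 CPM) and the highest macrophage sum (204.6 CPM). The part of these markers in the clock gene values was not tested. Without that library Dbp rose by 3.06 and Npas2 by 1.55 on the log2 scale against rt-PA.

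Set against Sham, rt-PA+Acu cortex had Dbp, Per3 and Clock near Sham level and did not have the other genes uniformly there. By edgeR's quasi-likelihood test, 0 of the 10 genes were DEGs, against 2.06% of all genes, with 0 also with DESeq2, which called 422 of all 12775 genes, and 0 at an unadjusted p under 0.05 with the 2-fold threshold, against 4.56% of all genes. At an adjusted p under 0.05 without a fold threshold, 1 rose and 2 fell, against 5.10% of all 12775 genes. The groups did not overlap for 5 genes, against 30.8% of all genes. Per1, Per2 and Cry2 were lower in all 3 rt-PA+Acu libraries, and Nr1d1 and Nr1d2 were higher in all 3.

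Per1 fell by 0.80 on the log2 scale in rt-PA+Acu against Sham (SE 0.10, edgeR adjusted p = 0.00647), a call that held in 12 of 13 alternatives and was lost in a fit over all 12 libraries (adjusted p = 0.18). Cry2 fell by 0.41 (SE 0.09, edgeR adjusted p = 0.0362), which held in 5 of 13 alternatives, and Nr1d2 rose by 0.48 (SE 0.10, edgeR adjusted p = 0.037), which held in 8 of 13. Both calls were lost when any 1 Sham library was left out and without rt-PA+Acu replicate 2, and that of Cry2 also without rt-PA+Acu replicate 1, with adjusted p of at most 0.161 for Cry2 and 0.18 for Nr1d2. The replicate block also lost both (edgeR adjusted p = 0.127 and 0.0975), and library size alone and the fit over all 12 libraries lost Cry2. Nr1d1 (log2 fold change 0.42, SE 0.12, edgeR adjusted p = 0.0889) and Per2 (-0.53, SE 0.17, edgeR adjusted p = 0.119) missed the threshold. For Dbp the log2 fold change was 0.04 with a 95% confidence interval of -0.43 to 0.51, and for Per3 it was -0.03 with an interval of -0.34 to 0.27.

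The balance of the loop's arms was described within each library, where a scaling factor common to all genes cancels. The log2 CPM of Dbp minus that of Npas2 was -0.52, -0.44 and -0.15 in Sham and -2.56, -2.58 and -1.83 in Model, with rt-PA at -1.96, -1.13 and -1.43 and the rt-PA+Acu libraries at 0.17, -0.13 and -0.02. All 6 Model and rt-PA values lay below all 6 others. The mean log2 CPM of Per1, Per2, Per3, Nr1d1, Nr1d2 and Dbp minus the mean of Clock and Npas2 was -0.39 ± 0.08 (SD, n = 3) in Sham and -1.54 ± 0.37 in Model, with rt-PA at -1.16 ± 0.08 and the rt-PA+Acu libraries at -0.28 ± 0.10. Model and rt-PA overlapped with each other on this scale, as did Sham and rt-PA+Acu, and the lower pair did not overlap with the upper pair. The scale is built from the genes described above, so it is not a separate result. It also averages Clock with Npas2, which moved in opposite directions in Model.

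**Figure D3:**
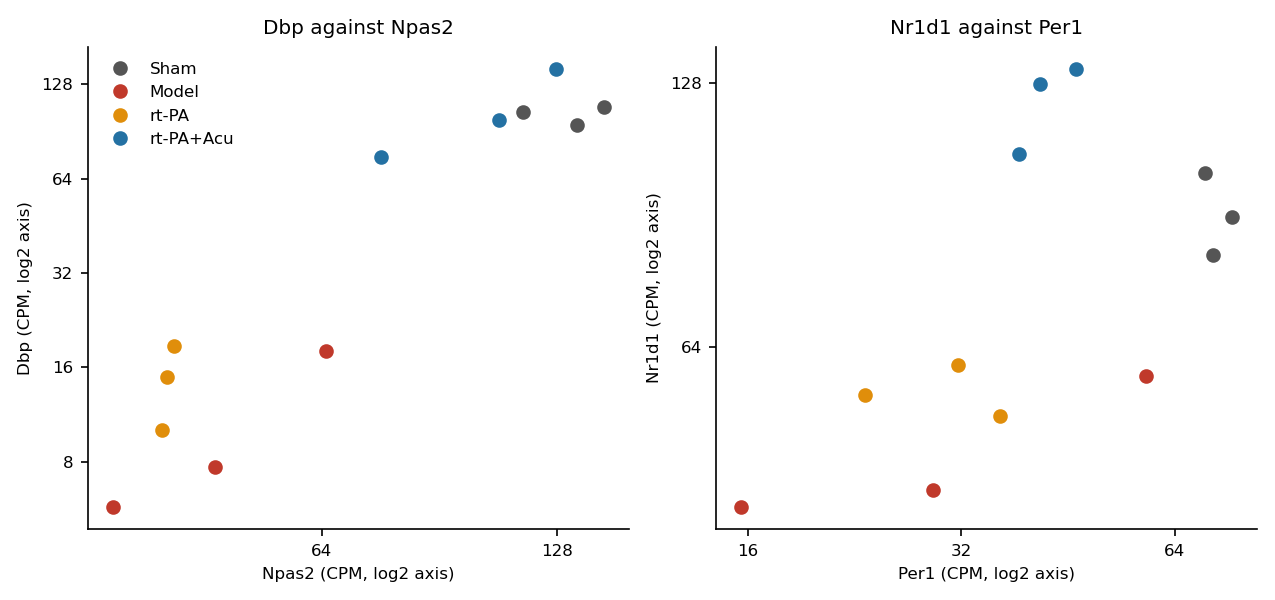
Dbp against Npas2 (left) and Nr1d1 against Per1 (right) in TMM-scaled CPM on log2 axes, 1 point per library, coloured by group. On the left, the 3 rt-PA+Acu points lie at 75.2 to 144 CPM of Dbp, beside the Sham points and far above the Model and rt-PA points, and on the right they lie above all others in Nr1d1 (106 to 133 CPM) and to the left of Sham in Per1 (38.7 to 46.4 CPM).

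A further pair of ratios was chosen after the values had been seen. Nr1d1 minus Per1 on the log2 CPM scale was 0.17 to 0.52 in Sham and 0.02 to 1.42 in Model, with rt-PA at 0.56 to 1.27 and the rt-PA+Acu libraries at 1.45 to 1.62. The rt-PA+Acu libraries were thus above all 9 others in this ratio, although they overlapped with Sham in the ratio of the loop's arms. Npas2 minus Clock was 0.03 to 0.45 in Sham and -2.16 to -1.04 in Model, with rt-PA at -1.82 to -1.70 and the rt-PA+Acu libraries at -0.71 to 0.21.

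Promoter sequence is shown for the clock genes whose starts carry a clock motif, and for Dbp, which had the widest change. The sequences are from RefSeq (build GRCr8, not the build of the counts), which gave 11 entries for 9 of the 10 genes. Each holds the 250 bases before a start, read 5′ to 3′ on the gene's strand, with motif matches in capitals. The motifs were searched on both strands, and each is given with the share of all 33469 promoter windows of this length that hold it. They were the E-box CACGTG (5.59%), the E'-box CACGTT (4.07%), the D-box TTATGTAA (0.828%), the ROR element half-site AGGTCA (14.1%) and the cyclic AMP response element TGACGTCA (1.59%). E-boxes are read by CLOCK and NPAS2 with BMAL1, D-boxes by DBP and its relatives, and ROR elements by REV-ERB and ROR receptors.
Per2 (chr9:99496994-99497243, GRCr8, minus strand): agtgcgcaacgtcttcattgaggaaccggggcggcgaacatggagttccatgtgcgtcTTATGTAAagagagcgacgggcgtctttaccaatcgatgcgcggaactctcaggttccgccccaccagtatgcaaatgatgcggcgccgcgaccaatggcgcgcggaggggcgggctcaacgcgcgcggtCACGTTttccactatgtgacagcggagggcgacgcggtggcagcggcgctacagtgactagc
Cry2 (chr3:98860438-98860687, GRCr8, minus strand): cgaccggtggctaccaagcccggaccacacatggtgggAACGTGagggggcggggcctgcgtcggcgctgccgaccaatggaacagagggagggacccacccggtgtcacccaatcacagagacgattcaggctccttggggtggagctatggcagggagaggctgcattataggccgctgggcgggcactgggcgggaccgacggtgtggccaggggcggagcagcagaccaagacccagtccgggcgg
Nr1d1, first entry (chr10:84229455-84229704, GRCr8, minus strand): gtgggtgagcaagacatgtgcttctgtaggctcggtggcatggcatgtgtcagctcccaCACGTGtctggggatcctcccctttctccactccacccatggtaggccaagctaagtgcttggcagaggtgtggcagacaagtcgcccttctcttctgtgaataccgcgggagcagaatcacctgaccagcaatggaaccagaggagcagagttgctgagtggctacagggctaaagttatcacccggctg
Nr1d1, second entry (chr10:84231813-84232062, GRCr8, minus strand): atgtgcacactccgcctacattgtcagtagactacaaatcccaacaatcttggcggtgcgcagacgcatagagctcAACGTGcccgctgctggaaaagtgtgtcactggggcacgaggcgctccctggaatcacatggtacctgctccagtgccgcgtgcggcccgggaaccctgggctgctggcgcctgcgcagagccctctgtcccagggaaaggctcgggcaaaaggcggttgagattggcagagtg
Nr1d2 (chr15:9954784-9955033, GRCr8, plus strand): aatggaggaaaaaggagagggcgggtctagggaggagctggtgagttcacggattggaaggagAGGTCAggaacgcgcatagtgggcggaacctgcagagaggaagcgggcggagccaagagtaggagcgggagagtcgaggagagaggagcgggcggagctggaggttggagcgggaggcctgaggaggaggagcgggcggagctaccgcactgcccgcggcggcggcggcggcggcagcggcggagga
Dbp (chr1:105312006-105312255, GRCr8, plus strand): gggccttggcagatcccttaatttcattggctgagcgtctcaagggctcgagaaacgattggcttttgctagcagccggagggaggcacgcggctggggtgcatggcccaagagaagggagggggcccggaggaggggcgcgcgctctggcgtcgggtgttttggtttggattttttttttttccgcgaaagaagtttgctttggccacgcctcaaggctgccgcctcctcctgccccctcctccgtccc

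In Per2, the E'-box match began 62 bases before the start and the D-box match 192 bases before it. Cry2 held an E'-box match at 212 bases before the start, written AACGTG because it lies on the other strand. The first Nr1d1 entry held an E-box match at 191 bases and the second an E'-box match at 174 bases, on the other strand. Nr1d2 held the half-site at 187 bases. In all, 4 of the 9 genes with an entry had at least 1 match. This count takes any of the 5 motifs, and the share of all windows with any of them was not computed. Nr1d2 counted through the half-site alone, which 14.1% of all windows hold. No window of these 9 genes held the cyclic AMP response element, and the window of Dbp held none of the 5 motifs, which says nothing of sites elsewhere in the gene. A match is a run of letters and not a measured binding site.

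Other genes of the clock machinery were taken from 6 lists of 37 names, of which 32 were in the table and 31 were tested. In Model against Sham, 16 of the 31 rose and 8 fell at an edgeR adjusted p under 0.05, with a median log2 fold change of 0.27, against 27.3% of all genes higher and 26.6% lower. The relatives of Dbp moved as Dbp did. Hlf, a PAR bZIP factor that binds the same D-boxes, stood at 195 to 250 CPM in Sham and at 11.3 to 25.9 in Model, with rt-PA at 21.4 to 27.4 and the rt-PA+Acu libraries at 132 to 316. It fell by 3.57 on the log2 scale in Model against Sham (edgeR adjusted p = 3.62e-05) and rose by 3.28 in rt-PA+Acu against rt-PA (edgeR adjusted p = 0.00118). Tef, the other factor of that family, fell by 1.17 and rose by 1.40 in the same comparisons (edgeR adjusted p = 5.81e-05 and 0.00195). Nfil3, which represses from D-boxes, moved the other way and rose by 2.05 in Model (edgeR adjusted p = 0.000159) and fell by 1.62 in rt-PA+Acu against rt-PA (edgeR adjusted p = 0.00666).

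**Figure D4:**
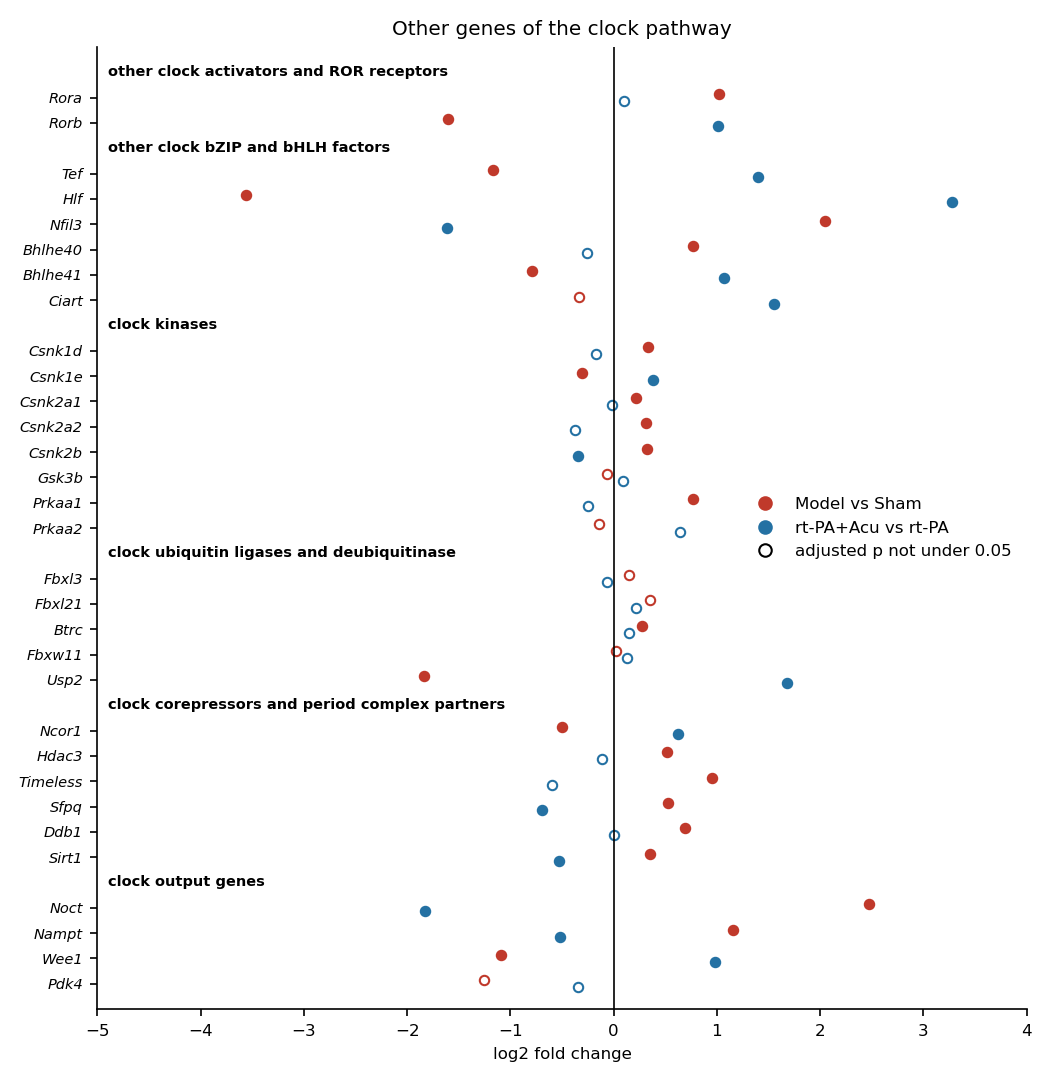
Log2 fold changes (horizontal axis) of the 31 other clock pathway genes tested, by list, in Model against Sham and in rt-PA+Acu against rt-PA, with 1 point a gene and comparison (red and blue) and open points where the edgeR adjusted p was not under 0.05. Hlf lies at -3.57 in the first and at 3.28 in the second, and Noct at 2.47 and -1.83.

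Among the bHLH repressors of E-boxes, Bhlhe41 (DEC2) fell by 0.79 on the log2 scale in Model, while Bhlhe40 (DEC1) rose by 0.77 (edgeR adjusted p = 0.0173 and 0.00111). In rt-PA+Acu against rt-PA, Bhlhe41 rose by 1.07 (edgeR adjusted p = 0.00281). Ciart, a further repressor of CLOCK with BMAL1, had a log2 fold change of -0.33 in Model against Sham (edgeR adjusted p = 0.568) and rose by 1.56 in rt-PA+Acu against rt-PA (edgeR adjusted p = 0.00629) and by 0.94 in rt-PA+Acu against Sham (edgeR adjusted p = 0.0339). Of the ROR receptors, which compete with REV-ERB, Rora rose by 1.02 and Rorb fell by 1.61 in Model against Sham (edgeR adjusted p = 0.00731 and 0.000336). In rt-PA+Acu against rt-PA, Rorb rose by 1.01 (edgeR adjusted p = 0.0042) and Rora did not pass (0.10, edgeR adjusted p = 0.881). Rorb is also one of the cortical layer markers used here.

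Of the 8 clock kinases, 5 rose and 1 fell in Model against Sham, where 54.0% of all genes passed, all by less than 2-fold, and the widest change was that of Prkaa1, a catalytic subunit of AMP kinase (0.77, edgeR adjusted p = 0.000697). Usp2, a deubiquitinase of clock proteins, fell by 1.84 in Model and rose by 1.68 in rt-PA+Acu against rt-PA (edgeR adjusted p = 9.04e-05 and 0.00247). The 6 corepressors and period complex partners had 5 rises and 1 fall in Model, beside the same 54.0% of all genes, and the fall was that of Ncor1 (-0.50), the corepressor that REV-ERB recruits. Among the 4 output genes, Noct, a rhythmic phosphatase, rose by 2.47 and Nampt, the enzyme that limits NAD salvage, by 1.15, while Wee1, a cell cycle kinase, fell by 1.09 in Model against Sham (edgeR adjusted p = 1.43e-05, 5.5e-05 and 9.3e-05). In rt-PA+Acu against rt-PA, 9 of the 31 rose and 6 fell, against 34.8% of all genes passing and 17.0% higher, while in rt-PA against Model their edgeR adjusted p ran from 0.296 (Noct) to 0.995 (Ncor1). In rt-PA+Acu against Sham, 2 rose (Ciart and Ddb1) and 1 fell (Pdk4), against 5.10% of all genes passing.

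Markers of several cell types moved with the groups beside the clock genes. The 7 cortical layer markers summed to 719.0 to 810.9 CPM in Sham and 297.3 to 377.3 in Model, with rt-PA at 314.9 to 378.7 and the rt-PA+Acu libraries at 525.8 to 700.9. The 4 macrophage markers summed to 1.77 to 4.71 CPM in Sham and 114.2 to 379.9 in Model, with rt-PA at 618.0 to 1281 and the rt-PA+Acu libraries at 21.4 to 204.6. In bulk RNA this sum does not tell infiltrating cells from resident ones. Outside Sham, Spp1 was the largest part of this sum in every library but Model replicate 3. Ccr2, another of them, stood at 0 to 0.437 CPM in Sham and 0.840 to 1.86 in Model, with rt-PA at 3.91 to 15.3 and rt-PA+Acu at 0 to 0.522. The 4 markers of homeostatic microglia summed to 311.2 to 392.1, 151.5 to 180.8, 164.8 to 190.7 and 222.9 to 281.2 CPM in the same order of groups, and the 5 astrocyte markers to 2437 to 2920, 3211 to 5103, 3928 to 4510 and 4164 to 6073 CPM. The astrocyte sum followed Gfap, a marker of reactive astrocytes (363 to 414 CPM in Sham, 2485 to 4085 in Model), while Aqp4, Slc1a2, Aldh1l1 and Gja1 were each lower in all Model libraries than in any Sham library. Each of these other astrocyte markers was also higher in all rt-PA+Acu libraries than in any rt-PA library. Gja1, for example, stood at 162 to 212 CPM in rt-PA and 316 to 469 in rt-PA+Acu. For Gfap these groups overlapped, at 3121 to 3426 and 2184 to 4378 CPM. The 5 oligodendrocyte markers ranged widely inside groups, from 2861 to 18330 CPM in rt-PA+Acu. The 3 endothelial markers in the count table summed to 201.0 to 214.4 CPM in Sham and 147.3 to 300.1 in Model. In rt-PA they summed to 280.4 to 347.6 CPM, above all Sham libraries, and in rt-PA+Acu to 126.6 to 152.2, below all of them. The 5 genes listed for neutrophils summed to 2.14 to 5.80 CPM in Sham and 2.14 to 11.5 in Model. In rt-PA they summed to 9.96 to 61.7 CPM and in rt-PA+Acu to 1.05 to 2.46. Mpo among them was at 0 in all 12 libraries. Ly6g6e, whose use as a neutrophil marker was not checked, stood at 1.87 CPM in rt-PA+Acu replicate 3 and at 0 to 0.081 elsewhere. It was the largest part of that library's sum of 2.46 CPM. The part of cell composition in the clock gene differences was not tested.

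The genes with profiles most like those of the clock genes were found by the root mean square (RMS) difference of centred log2 CPM over the 12 libraries, among 13298 genes. The nearest to Dbp was Hlf, at 0.264, followed by Akap5 and Fn3k. Nr1d1 and Nr1d2 had the same nearest gene, Pdk2, a pyruvate dehydrogenase kinase, at 0.115 and 0.142, and lay 0.163 from each other. Per2 was nearest to Pitpnm2 (0.165) and Npas2 to Speg (0.146), while Per2 and Npas2 lay 0.282 apart. Of the other genes, Per3 was nearest to Atp1b2 (0.216), Per1 to Ctss (0.275), Cry2 to Gdf1 (0.107), Clock to Sin3a (0.06) and Cry1 to Enah (0.181). Such a difference depends on how much the clock gene itself varies. The RMS of the centred profile was 1.643 for Dbp, 0.286 for Cry1 and 0.203 for Clock. The differences are therefore not compared between clock genes. They describe likeness over libraries that fall into groups, and they carry no test.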

How the data were processed

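The deposited table held raw whole-number counts per gene symbol for the 12 libraries, made by the authors from dUTP-stranded RNA sequencing. By the study's methods, STAR aligned the reads to mRatBN7.2 and Salmon 1.9.0 counted uniquely mapped pairs on the Ensembl annotation. The submitters' processing notes name STAR 2.7.10a and also featureCounts 2.0.1, whose role was not given. Molecular identifiers appear in the labelled adapters, and their use in counting was not given in the sources used here. Groups and replicate numbers came from the sample titles. The labels do not say whether replicates came from separate litters or days, so p-values measure the spread between these samples.

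Each comparison used the 6 libraries of its groups in edgeR 4.0.16 (R 4.3.3, limma 3.58.1): TMM scaling, filterByExpr, the quasi-likelihood test and Benjamini-Hochberg adjustment over all genes kept. Rose and fell mean an adjusted p under 0.05, and a DEG also a change over 2-fold, the thresholds of the study's methods. CPM used TMM library sizes, and log2 CPM for ratios a prior count of 2. The test was also run on simulated counts with far fewer changed genes than in most comparisons here. That run therefore does not check the rate of false calls in these data. Named genes were the 10 clock genes, the fixed lists of pathway and input genes, and the 3 nearest profiles of each clock gene. These genes and lists were chosen with earlier results of these data known. The alternatives were DESeq2 1.42.0, other scalings, filters and call thresholds, a fit over 12 libraries, a replicate block and leaving out each library. RefSeq promoter sequences (GRCr8) were matched by symbol. Pathway and input genes were tested in the edgeR fit of each comparison and not under the alternatives.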

Additional observations from a re-analysis of the deposited data

How the results depend on the processing

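The count of clock genes called as DEGs stayed within 1.5 times its value in every alternative except the call without a fold threshold, which gave 10 in rt-PA against Sham (6 as reported) and 3 in rt-PA+Acu against Sham (0 as reported). Leaving out each library in turn gave 4 to 7 in Model against Sham, 5 to 6 in rt-PA+Acu against rt-PA, 6 in rt-PA against Sham, and 0 in both other comparisons. Library size alone as the scaling gave 4 in Model against Sham, with Cry2 at -0.99, and 4 in rt-PA+Acu against rt-PA, with Nr1d1 at 1.00. Changes of sign arose only for log2 fold changes near 0 that did not pass the test. Without 1 library each, these ran in rt-PA against Model from -0.521 to 0.432 for Per1 and from -0.243 to 0.106 for Cry2, and in rt-PA+Acu against Sham from -0.078 to 0.083 for Clock, -0.122 to 0.074 for Per3 and -0.236 to 0.229 for Dbp. The cause was not tested.

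Same-numbered libraries correlated from -0.121 to 0.146 in their deviations from the group means. These low values gave no sign of pairing by number, and with so few libraries in a group they cannot exclude it. The replicate block left the counts at 6, 0, 5, 6 and 0 in the order of Model against Sham, rt-PA against Model, rt-PA+Acu against rt-PA, rt-PA against Sham and rt-PA+Acu against Sham. In the last, Dbp had -0.006 under the block, and the calls of Cry2 and Nr1d2 at an adjusted p under 0.05 were lost. The hour of tissue collection is not known.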

Other observations

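Genes that answer to inputs of the clock were taken from further lists. Of 9 early genes driven by cyclic AMP or neuronal activity, 7 were tested. In Model against Sham, Crem, a cyclic AMP response factor, rose by 1.74 on the log2 scale, while Arc, a synaptic early gene, and Nr4a1, an early nuclear receptor, fell by 1.13 and 1.59 (edgeR adjusted p = 5.78e-05, 0.00947 and 0.00318). Fos, Fosb, Egr1 and Npas4 did not pass, and 54.0% of all genes did. In rt-PA+Acu against rt-PA, Crem fell by 2.23 and Fosb by 1.61 (edgeR adjusted p = 0.00104 and 0.00446). In rt-PA+Acu against Sham, 4 of the 7 fell, where 5.10% of all genes passed, namely Arc by 2.38, Egr1 by 1.72, Nr4a1 by 1.68 and Crem by 0.71 (edgeR adjusted p = 0.00188, 0.00188, 0.0041 and 0.0378). Per1 fell in that comparison too, as given in the report.

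Of 6 glucocorticoid responsive genes, 5 were tested. In Model against Sham, Errfi1, a feedback inhibitor of EGF receptor signalling, rose by 1.37, while Sult1a1, a sulfotransferase, and Zbtb16, a zinc finger factor, fell by 3.66 and 1.04 (edgeR adjusted p = 0.000434, 0.000608 and 0.043). With rt-PA+Acu set against rt-PA, Sult1a1 rose by 2.30 and Zbtb16 by 1.00, and Errfi1 fell by 1.71 and Fkbp5, a chaperone of the glucocorticoid receptor, by 0.69 (edgeR adjusted p = 0.00442, 0.017, 0.00104 and 0.0322). Sgk1 passed in neither, and Fkbp5 did not pass in Model against Sham (log2 fold change -0.35, edgeR adjusted p = 0.256). Of all genes, 54.0% passed in Model against Sham and 34.8% in rt-PA+Acu against rt-PA. For rt-PA+Acu against Sham, the log2 fold changes of the 5 ran from -1.01 for Sult1a1 to -0.40 for Zbtb16, with edgeR adjusted p from 0.0591 for Fkbp5 to 0.287 for Zbtb16.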
